A study of Mus musculus with 32 samples.

Results

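The genes described here encode the working parts of 3 machines that every cell runs: the ribosome, the microtubule and the mitochondrial respiratory chain. A gene spot was included when its title held the words ribosomal protein, tubulin, ATP synthase, cytochrome c oxidase, NADH dehydrogenase or elongation factor 1, in any case, and neither began with EST (expressed sequence tag, a single read of a cDNA clone) nor held the words kinase or mitochondrial ribosomal. The rule used titles alone and no measured value. It found 20 of the 4696 gene spots, and these stood for 19 different genes, because Ndufv1 had 2 spots. Ribosomal proteins made up 9 of the 20, with 7 of the cytosolic ribosome and 2 of the mitochondrial ribosome, whose titles put the word mitochondrial after the words ribosomal protein. The others were 4 tubulins, 4 NADH dehydrogenase spots, 2 cytochrome c oxidase subunits and 1 ATP synthase subunit. No title held elongation factor 1, 2 titles were left out for the word kinase, and 10 spots with a matching word were left out because their titles began with EST.

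RNA came from the prefrontal cortex of adult mice of selected lines derived from the heterogeneous HS/Ibg stock: WSP mice were bred for severe ethanol withdrawal seizures and WSR mice for mild ones, and each selected line existed as 2 separately bred lines. The 8 groups were female WSP EtOH, female WSP Air, female WSR EtOH, female WSR Air, male WSP EtOH, male WSP Air, male WSR EtOH and male WSR Air, with 4 arrays in each, 2 of them from the first breeding line and 2 from the second. EtOH mice had an ethanol injection of 1.5 g/kg (a somewhat higher dose in the second WSP breeding line) and then 72 h of ethanol vapor; Air mice breathed air. Every group, controls included, was given pyrazole, which blocks alcohol dehydrogenase, at 68.1 mg/kg, every sample was taken on day 21 of abstinence, and every array carried pooled RNA of 2 animals, labelled with 33P. Since only 2 breeding lines stood behind each selected line, a difference between WSP and WSR cannot be told apart from a chance difference between the bred stocks, and p-values rest on the spread between pooled samples.

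Ribosomal proteins assemble with ribosomal RNA into the large and small subunits that translate mRNA, in the cytosol or, for a separate nuclear-encoded set, in the mitochondrion. Alpha and beta tubulins pair into the dimers that polymerise to microtubules, the tracks of axonal transport. Complex I (NADH dehydrogenase) and complex IV (cytochrome c oxidase) of the inner mitochondrial membrane pump protons as electrons pass to oxygen, and ATP synthase uses the proton gradient to make ATP, on which neurons depend heavily. Ribosomal proteins and tubulins have close paralogs and many processed pseudogenes, so a cDNA spot may also bind transcripts of relatives, and which transcripts the clones bind was not checked here.

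Facts of the whole set of arrays come first because they bear on all values that follow. A spot's intensity is given as its ratio to the background of its own array, which was a single value of 6.96 to 30.3 intensity units. Gene spots at 2 times background or more numbered 588 to 1428 on female WSP arrays, 783 to 1095 on female WSR arrays, 518 to 604 on male WSP arrays and 1682 to 2040 on male WSR arrays. Rank correlations between arrays of 1 sex and line ran from 0.875 to 0.949 in male WSR, and from 0.613 to 0.808 over female WSP, female WSR and male WSP. The male WSP and male WSR arrays therefore differed in overall brightness, which stands beside every male line difference below; its part in them was not tested. Titles of brain cell markers were present: glutamine synthetase of astrocytes had a mean brightness percentile of 92.3, synaptotagmin 4 of neurons 87.6 and myelin proteolipid protein of oligodendrocytes 68.8. The choroid plexus gene transthyretin (95.8) and hemoglobin alpha (96.7 for the brighter of its 2 spots) were bright as well, at 2 times background or more on all 32 arrays. Not all markers were bright. Over the 10 marker spots the mean percentile ran from 34.1 to 96.7, with 6 spots above 50. Of the 10, 2 reached 2 times background on no array. Summed over 6 spots of vessel, choroid plexus and blood, the ratio to background ranged between 24.2 and 167 on female WSP arrays, 61.5 and 146.9 on female WSR arrays, 26.1 and 40.2 on male WSP arrays and 162 and 274 on male WSR arrays. The brain cell list held 4 spots: glutamine synthetase, synaptotagmin 4, myelin proteolipid protein and a spot titled proteolipid protein 2. The last was taken in by its title words and was not checked as a marker. Summed over these 4 spots the ratio ranged between 13.2 and 41.0 on female WSP arrays, 11.8 and 45.3 on female WSR arrays, 7.05 and 12.1 on male WSP arrays and 53.6 and 117.9 on male WSR arrays. Both sums were thus lower on all male WSP arrays than on any male WSR array.

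Most of the 20 spots were dim. The brightness percentile of a spot is the percent of gene spots on the same array that are no brighter. Averaged over the 32 arrays, the percentiles of the 20 spots had a mean of 38.2 and a median of 32.2, against a median of 43.3 over all gene spots, and 4 of the 20 lay above 50 and 0 above 90. Only 4 of 20 (20%) reached 2 times background on at least 4 arrays, against 44.4% of all gene spots, and 13 of 20 reached it on no array, as did 1799 of the 4696. The rule took only titles not starting with EST. The 1159 gene spots with such a title had a median percentile of 39.9. Of these, 39.0% reached 2 times background on at least 4 arrays, and 510 reached it on no array. Spots of different clones are not calibrated against each other, so these percentiles rank spots and not transcript levels. Among 27 UniGene clusters with 2 gene spots each, the mean percentiles of the 2 spots differed by a median of 31.5 points, against 23.0 points over all pairs of gene spots.

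**Figure D1:**
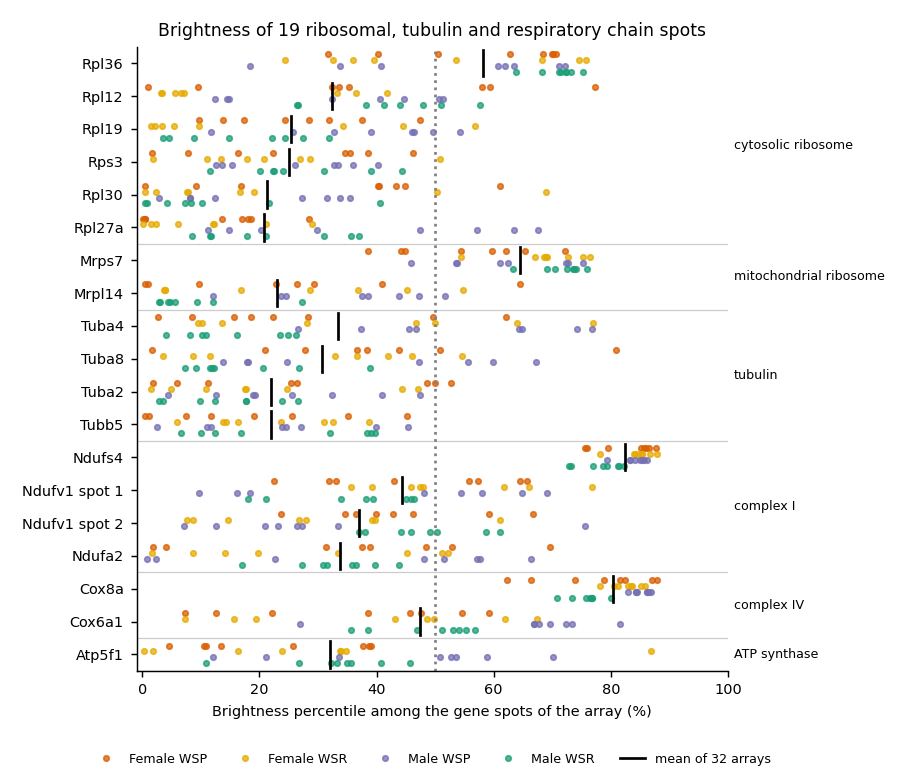
Brightness percentile (x axis, percent of the 4696 gene spots of the same array) of each of 19 of the 20 spots on each of 32 arrays, coloured by sex and line, with the spots grouped by complex. The black bar is the mean of the 32 arrays; Ndufs4 and Cox8a lie right of the dotted line at 50 on every array, and the tubulins and most cytosolic ribosomal proteins lie mainly left of it.

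The cytosolic ribosome was the dimmest of the larger families after tubulin, with a mean percentile of 30.2 over 7 spots. Rpl36, a protein of the large subunit, averaged 58.1 ± 17.3 (SD, n = 32 arrays). Rpl12, which helps form the base of the ribosomal stalk, averaged 32.4, Rpl19 of the large subunit 25.4, and Rps3, a small subunit protein at the mRNA entry that also acts in DNA repair, 24.98. Rpl30 (21.3) and Rpl27a (20.8 ± 18.1), both of the large subunit, were the lowest of the 20. Rpl27a lay below background on 23 of 32 arrays, and its highest ratio to background anywhere was 1.28.

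The 4 tubulins averaged 27, and 0 of 4 reached 2 times background on any array. The spot titled tubulin alpha 4 (Tuba4 on the arrays, Tuba4a in RefSeq) averaged 33.4, Tuba8, an alpha tubulin first known from muscle and testis, 30.6, and the spot titled tubulin alpha 2 (Tuba2, now Tuba1b) 22.0. Tubb5, a beta tubulin common in proliferating and neural cells, averaged 22.0 ± 13.7 and was below background on 22 arrays. The neighbouring values in this order differed by less than the SD between arrays.

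The respiratory chain held the 2 brightest of the 20 spots. Ndufs4, an accessory subunit near the NADH-oxidising arm of complex I, averaged 82.4 ± 4.19 (SD, n = 32) and reached 2 times background on 21 arrays. Cox8a, a small membrane subunit of complex IV, averaged 80.3 ± 6.16 and reached it on 17 arrays. These means differed by less than either SD. Cox6a1, the other complex IV subunit, averaged 47.4 ± 20.3 and never reached 2 times background. Ndufv1, which carries the flavin that accepts electrons from NADH, averaged 44.4 on spot 1 and 37.0 on spot 2. Ndufa2, an accessory subunit of complex I, averaged 33.7, and Atp5f1 (Atp5pb in RefSeq), subunit b of the ATP synthase stalk, 32.0. Of the mitochondrial ribosome, Mrps7 of the small subunit averaged 64.5 ± 10.6 and Mrpl14 of the large subunit 23.0.

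Other spots of neighbouring function gave a comparison. Titles of other translation factors had a mean percentile of 55.7 over 10 spots, of which 6 were kept by the filter on brightness. Other energy metabolism had 59.7 over 18 spots with 11 kept, a list chosen by title words that also took in proteasome subunits titled non-ATPase. Other cytoskeleton titles had 45.1 over 17 spots with 5 kept. The 10 EST spots with ribosomal, oxidase or synthase words had 55.4, and 1 of them, titled as similar to a cytochrome c oxidase polypeptide, had 98.8. No difference between these lists was tested.

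Across the 8 groups the mean percentile of the 20 spots was 38.6 ± 3.26 in female WSP EtOH and 37.2 ± 5.82 in female WSP Air, 38.2 ± 2.97 in female WSR EtOH and 34.0 ± 2.38 in female WSR Air (SD, n = 4). It was 43.9 ± 1.86 in male WSP EtOH and 43.3 ± 2.97 in male WSP Air, and 34.5 ± 2.57 in male WSR EtOH and 36.04 ± 3.85 in male WSR Air. Each ethanol group overlapped its air group, and the male WSP groups had the highest means. In ratio to background the order was another: 0 of the 20 spots reached 2 times background on any male WSP array, against 4 to 5 on each male WSR array, and 0 to 2 on each female array.

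The promoter sequences of Cox8a and Ndufs4 are shown because these were the brightest spots, and that of Rpl27a because it was the dimmest and is met again in the ethanol comparison. They are from RefSeq (GRCm38.p6), run from 100 bases before the start of transcription to 20 bases after it, and read along the gene's own strand. They lie at chr19:7217597-7217716 (minus strand) for Cox8a, chr13:114388075-114388194 (minus strand) for Ndufs4 and chr7:109519095-109519214 (plus strand) for Rpl27a. Capitals mark the letters CTTCCGG in Cox8a, the core of sites for ETS factors, and the longest run of C and T near the start in Rpl27a; Ndufs4 has neither marked.
Cox8a: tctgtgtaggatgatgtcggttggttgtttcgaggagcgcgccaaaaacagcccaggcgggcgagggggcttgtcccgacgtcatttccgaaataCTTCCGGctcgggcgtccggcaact
Ndufs4: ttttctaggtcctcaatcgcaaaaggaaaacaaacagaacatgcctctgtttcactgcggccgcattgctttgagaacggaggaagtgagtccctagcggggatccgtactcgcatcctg
Rpl27a: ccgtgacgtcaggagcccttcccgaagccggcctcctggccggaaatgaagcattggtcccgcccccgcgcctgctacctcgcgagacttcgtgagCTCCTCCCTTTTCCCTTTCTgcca

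RefSeq promoters, from 250 bases before the start to 50 after it, were found for 15 of the 19 genes. CTTCCGG, searched on both strands, was in 4 of the 15 (26.7%), namely Cox6a1, Cox8a, Rpl19 and Rpl27a, against 9.93% of all 27025 genes in the table. A run of C and T at the start is the mark of the 5′ terminal oligopyrimidine mRNAs, to which ribosomal protein mRNAs belong. Within 20 bases of the start the longest run was 20 bases in Rpl27a, a length reached by 0.463% of genes, 11 bases in Rpl19 and Tuba8, and at most 7 in the other 12, against a median of 5 over all genes. A match of letters is a description and not a site.

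The ethanol comparison asks what remained different in the cortex on day 21 after the vapor ended. None of the 4 spots kept by the brightness filter (Ndufs4, Cox8a, Mrps7 and Rpl36) was called in any of the 4 sex and line groups, which does not show that they were unchanged. Values were normexp-corrected, put on the log2 scale and quantile normalized, and differences were tested with limma, where a call is a Benjamini-Hochberg adjusted p under 0.05 over the 2084 gene spots kept. The background rate of calls was low: it was 0.384% of kept spots for female WSP mice, 0.048% for female WSR, 0.048% for male WSP and 0.0% for male WSR. Over all 4 groups together 0 of 4 passed (0.0% of kept spots), and 0 of 4 differed between WSP and WSR in their ethanol difference (0.24% of kept spots). At an unadjusted p under 0.05 the number of the 4 was 1 in each of female WSR, male WSP and the difference between lines and 0 in the other 3 comparisons, and the 1 was Rpl36 each time; 13%, 8.45% and 12.6% of kept spots had such a p in those 3 comparisons. Cyclic loess and the authors' table also gave 0 calls among these 6 comparisons, and median scaling gave 1, again Rpl36, for the difference between lines (27.4% of kept spots were called there).

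Rpl36 had the largest ethanol differences relative to its error among the 4. In females of the WSR line its normalized log2 intensity was 6.06, 5.75, 6.09 and 5.94 in EtOH arrays, against 5.76, 5.73, 5.77 and 5.82 in Air arrays. In ratio to background these arrays stood at 1.55, 1.05, 1.92 and 1.51 in EtOH, against 0.81, 0.89, 0.90 and 1.03 in Air. The EtOH arrays were mostly above the Air arrays, with 1 EtOH array among them on the normalized scale, and none of the 8 reached 2 times background. The difference was 0.19 ± 0.06 (SE; limma adjusted p = 0.267). In male WSP mice Rpl36 was 5.89, 5.77, 5.72 and 5.75 in EtOH arrays, against 5.99, 6.01, 5.88 and 5.87 in Air arrays, with a difference of -0.15 ± 0.06 (limma adjusted p = 0.483); the groups overlapped narrowly. The ethanol difference in WSP minus that in WSR was -0.18 ± 0.06 (limma adjusted p = 0.235), and with median scaling it was -0.20 ± 0.07 with an adjusted p of 0.0317, where the median of all kept spots was -0.20 too. In female WSP mice the difference was 0.05 and in male WSR mice 0.06. Line and the higher ethanol dose of the second WSP breeding line cannot be told apart in the contrast between lines.

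**Figure D2:**
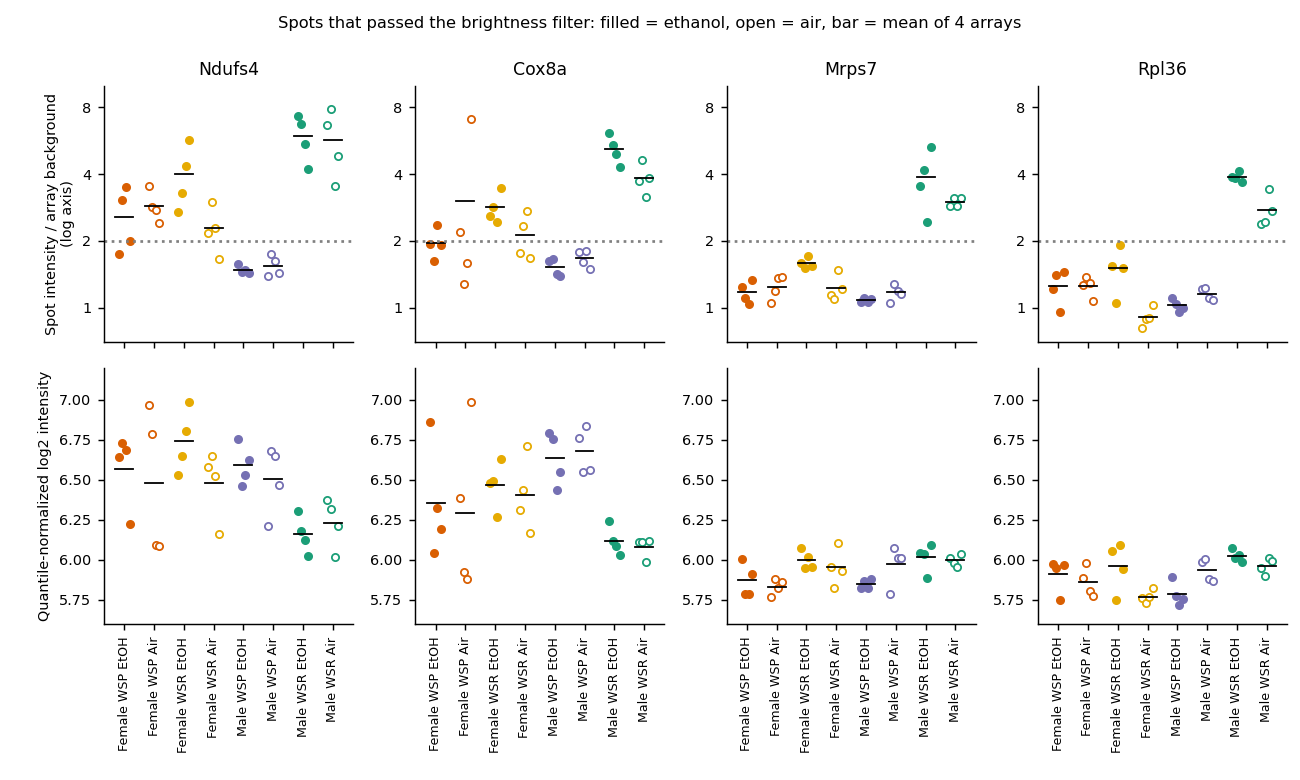
Values of Ndufs4, Cox8a, Mrps7 and Rpl36 on each array, by group, with ethanol arrays filled and air arrays open; the upper row gives the ratio to array background (log axis, dotted line at 2 times), the lower row the quantile-normalized log2 intensity, and bars are means of 4 arrays. In the upper row all 4 spots are below the dotted line on the male WSP arrays and above it on the male WSR arrays; in the lower row Ndufs4 and Cox8a are higher in male WSP than in male WSR, an order that median scaling turns round.

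Ndufs4 had its largest ethanol difference in female WSR mice. Its values there were 6.53, 6.65, 6.81 and 6.99 in EtOH arrays, against 6.58, 6.65, 6.52 and 6.16 in Air arrays. The groups overlapped, and the difference of 0.26 ± 0.16 did not pass (limma adjusted p = 0.492). In the other 3 groups its differences were 0.09 (female WSP), 0.09 (male WSP) and -0.07 (male WSR). Cox8a differed by 0.06 (female WSP), 0.06 (female WSR), -0.04 (male WSP) and 0.04 (male WSR), each with an SE of 0.17. Mrps7 differed by 0.04, 0.04, -0.12 and 0.02 in the same 4 groups, with an SE of 0.06. In male WSP mice Mrps7 was 5.82, 5.87, 5.82 and 5.88 in EtOH arrays, against 5.79, 6.08, 6.01 and 6.01 in Air arrays, so that 3 of 4 Air arrays lay above every EtOH array.

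With no filter on brightness all 20 spots could be tested among the 4696. Male WSP then gave 1 call among the 20, Rpl27a (0.128% of gene spots were called). The other 5 comparisons gave 0 of 20, beside 0.213% of gene spots for female WSP mice, 0.0213% for female WSR, 0.0% for male WSR, 0.0% over all groups and 0.0426% for the difference between lines; at an unadjusted p under 0.05 these 5 had 2, 3, 0, 3 and 4 of the 20, beside 10.1%, 12.7%, 1.55%, 4.96% and 10.2% of gene spots at that same threshold. Rpl27a was 5.80, 5.89, 5.84 and 5.94 in male WSP EtOH arrays, against 5.71, 5.74, 5.70 and 5.72 in male WSP Air arrays. In ratio to background the same arrays stood at 1.04, 1.12, 1.07 and 1.12 in EtOH, against 0.96, 1.00, 0.96 and 0.96 in Air. All 4 EtOH arrays lay above all 4 Air arrays on both scales, and the highest of the 8 was 1.12 times background. The normalized difference was 0.15 ± 0.03 (SE; limma adjusted p = 0.00763), while median scaling gave Rpl27a a difference of 0.04 ± 0.04 and called 0 of the 20 in male WSP. In the other groups Rpl27a differed by 0.02 (female WSP), 0.02 (female WSR) and -0.03 (male WSR).

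The other unfiltered differences were small. Over the 20 spots they spanned -0.08 to 0.18 for female WSP mice, -0.29 to 0.26 for female WSR, -0.15 to 0.15 for male WSP and -0.07 to 0.06 for male WSR. The medians of the 20 were 0.0011, 0.027, 0.016 and -0.00080 in these groups, beside 0.00048, 0.0042, 0.0029 and 0.0012 over all gene spots. Outside the naming rule, and chosen after their values were seen, are the differences of Rpl12 in female WSP and of Atp5f1 in female WSR mice, neither of them called. Rpl12 was 5.75, 6.14, 5.86 and 5.85 in female WSP EtOH arrays, against 5.70, 5.76, 5.75 and 5.66 in Air arrays, a difference of 0.18 ± 0.05 (limma adjusted p = 0.122). Atp5f1 was 5.73, 5.71, 5.65 and 5.75 in female WSR EtOH arrays, against 6.83, 5.67, 5.75 and 5.76 in Air arrays, a difference of -0.29 ± 0.13 (limma adjusted p = 0.369). That difference lay in 1 Air array, at 2.69 times background, while the other 3 Air arrays lay between 5.67 and 5.76, close to the EtOH arrays.

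**Figure D3:**
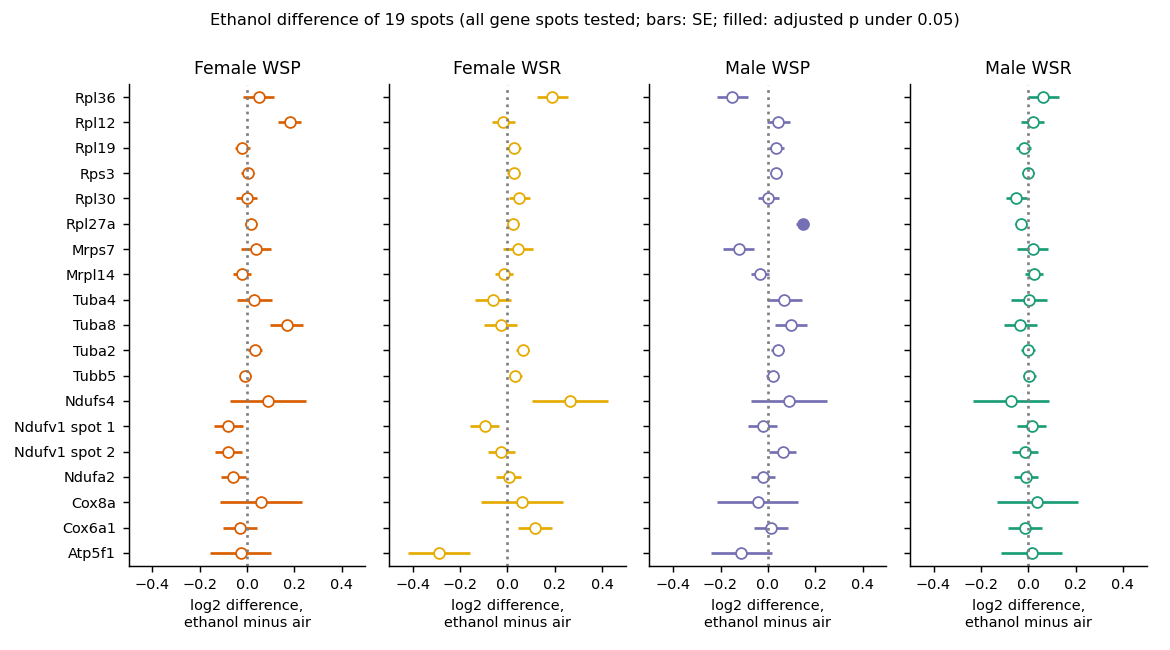
Log2 difference, ethanol minus air (x axis; bars are SE), of each of 19 of the 20 spots in the 4 sex and line groups, from the fit to all 4696 gene spots without a brightness filter; filled points have a limma adjusted p under 0.05. Rpl27a in male WSP mice is the 1 filled point, and most points lie within 0.1 of 0.

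The line comparison asks how WSP differed from WSR mice, with ethanol and air arrays averaged. In females 0 of the 4 kept spots were called (12.1% of kept spots were); 1 of the 4, Mrps7, had an unadjusted p under 0.05 (24.0% of kept spots), and without the filter 0 of 20 were called (5.77% of gene spots) and 2 had an unadjusted p under 0.05 (17.3% of gene spots). Mrps7 was 6.01, 5.79, 5.78 and 5.91 in female WSP EtOH arrays and 5.77, 5.88, 5.83 and 5.86 in female WSP Air arrays, against 6.07, 5.95, 6.02 and 5.96 in female WSR EtOH arrays and 5.95, 5.83, 6.11 and 5.93 in female WSR Air arrays. The lines overlapped, and the difference of -0.12 ± 0.05 did not pass (limma adjusted p = 0.0690). The female differences were -0.08 for Ndufs4, -0.11 for Cox8a and 0.02 for Rpl36. Cox8a was the most uneven of the 4 in females: on 1 female WSP Air array it stood at 7.10 times background, and on the other 7 female WSP arrays between 1.27 and 2.37. In ratio to background 1 of the 20, Ndufv1 spot 2, had all 8 female WSP arrays (0.986 to 1.80) above all 8 female WSR arrays (0.740 to 0.982), as did 0.213% of gene spots. Its quantile-normalized difference was 0.05 ± 0.04 and was not called (limma adjusted p = 0.561).

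In males the line difference of the 2 brightest spots, Cox8a and Ndufs4, ran opposite ways as a ratio to background and as a rank. Cox8a was 1.62, 1.66, 1.42 and 1.39 times background in male WSP EtOH arrays and 1.78, 1.62, 1.80 and 1.49 in male WSP Air arrays, against 6.15, 5.44, 4.92 and 4.30 in male WSR EtOH arrays and 3.71, 4.62, 3.15 and 3.85 in male WSR Air arrays. Ndufs4 was 1.57, 1.44, 1.48 and 1.43 in male WSP EtOH and 1.38, 1.752, 1.62 and 1.43 in male WSP Air, against 7.28, 6.70, 5.47 and 4.23 in male WSR EtOH and 6.65, 7.84, 3.54 and 4.85 in male WSR Air. Mrps7 ran from 1.05 to 1.28 in male WSP, against 2.43 to 5.32 in male WSR, and Rpl36 from 0.96 to 1.23, against 2.39 to 4.15. For these 4 of the 20 spots every male WSP array lay below every male WSR array, as it did for 51.0% of all gene spots. All 4 were under 2 times background on all 8 male WSP arrays and at or above it on all 8 male WSR arrays; Mrps7 and Rpl36 passed the brightness filter through the male WSR arrays alone, so their count among the called spots is no support for a difference. None of the 4 was well above background in male WSP mice, so no fold of signal between the lines is given. The differences below are between normalized values, which for male WSP come from spots close to background, and are not fold changes of RNA.

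After quantile normalization, which keeps only the rank of a spot on its array, Cox8a was 6.79, 6.76, 6.44 and 6.55 in male WSP EtOH arrays and 6.76, 6.55, 6.83 and 6.56 in male WSP Air arrays, against 6.24, 6.12, 6.09 and 6.03 in male WSR EtOH arrays and 6.11, 6.11, 5.98 and 6.12 in male WSR Air arrays. All 8 male WSP arrays lay above all 8 male WSR arrays. Cox8a was thus higher in male WSP by 0.55 ± 0.12 (SE; limma adjusted p = 0.000258), with cyclic loess by 0.50, but with median scaling it was lower, by -0.49 ± 0.10 (adjusted p = 8.04e-05), where the median over all kept spots was -0.69. On the authors' table its difference was -0.17 score units and was not called. Both breeding lines showed the quantile-normalized order: Cox8a averaged 6.72 ± 0.11 and 6.60 ± 0.17 in the first and the second male WSP breeding line, against 6.15 ± 0.06 and 6.05 ± 0.06 in those of male WSR (SD, n = 4).

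Ndufs4 behaved alike. It was 6.75, 6.46, 6.53 and 6.62 in male WSP EtOH arrays and 6.21, 6.68, 6.65 and 6.47 in male WSP Air arrays, against 6.30, 6.18, 6.13 and 6.03 in male WSR EtOH arrays and 6.37, 6.32, 6.02 and 6.21 in male WSR Air arrays. All male WSP arrays but 1 Air array were above every male WSR array. The difference was 0.35 ± 0.12 after quantile normalization (limma adjusted p = 0.00986) and 0.63 with cyclic loess, but -0.72 ± 0.09 with median scaling (adjusted p = 4.21e-09) and -0.65 score units on the authors' table (adjusted p = 0.00676). Without the arrays of replicate 3 the quantile-normalized difference was 0.30 and lost its call (adjusted p = 0.0831).

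Rpl36 was lower in male WSP than in male WSR under all 4 of these scalings, although less so than the median of kept spots under median scaling. It was 5.89, 5.77, 5.72 and 5.75 in male WSP EtOH arrays and 5.99, 6.01, 5.88 and 5.87 in male WSP Air arrays, against 6.07, 6.01, 6.03 and 5.99 in male WSR EtOH arrays and 5.95, 5.90, 6.01 and 5.99 in male WSR Air arrays. The lines overlapped, mostly in the Air arrays. The difference was -0.13 ± 0.04 after quantile normalization (limma adjusted p = 0.0112), -0.25 with cyclic loess, -0.43 with median scaling and -0.75 score units on the authors' table. Without replicate 3 the call was lost (-0.10, adjusted p = 0.0858), and likewise without replicate 4 (-0.12, adjusted p = 0.0782). Mrps7 was also lower under these scalings, by -0.10 ± 0.05 after quantile normalization, which was not called (limma adjusted p = 0.0715), by -0.21 with cyclic loess, -0.43 with median scaling and -0.75 score units on the authors' table, all 3 called. Of the spots tested 64.1%, 86.6% and 58.3% were called in these 3 settings. Under median scaling Mrps7 too was less low than the median of kept spots.

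In all, 3 of the 4 kept spots were called between male WSP and male WSR mice, 2 higher and 1 lower. Of all kept spots 58.3% were called (24.4% higher and 34.0% lower). The lower spot, Rpl36, passed the brightness filter through the male WSR arrays alone, so its call is no support for a difference. Without the filter 7 of 20 were called, where 30.1% of gene spots were (14.2% higher and 15.9% lower). Among those higher in male WSP by rank were Cox8a, Ndufs4, Cox6a1 (0.18), Tuba4 (0.17) and Rpl27a (0.07), and lower was Rpl36. By percentile 2 of the 20, Cox8a and Tuba4, had all male WSP arrays above all male WSR arrays (4.98% of gene spots), and 0 of 20 had them all below (10.1%). The median difference of the 20 was 0.050, beside 0.024 over all gene spots. With median scaling and no filter 16 of 20 were called (76.1% of gene spots), of which 12 were higher (36.2%) and 4 lower (39.9%) in male WSP, and the 4 lower were the 4 bright spots Ndufs4, Cox8a, Mrps7 and Rpl36. The 12 higher spots, among them Tuba4 at 0.20 and Rpl27a at 0.16, were dim ones. None of the 20 spots, the 4 lower ones included, reached 2 times background on a male WSP array.

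**Figure D4:**
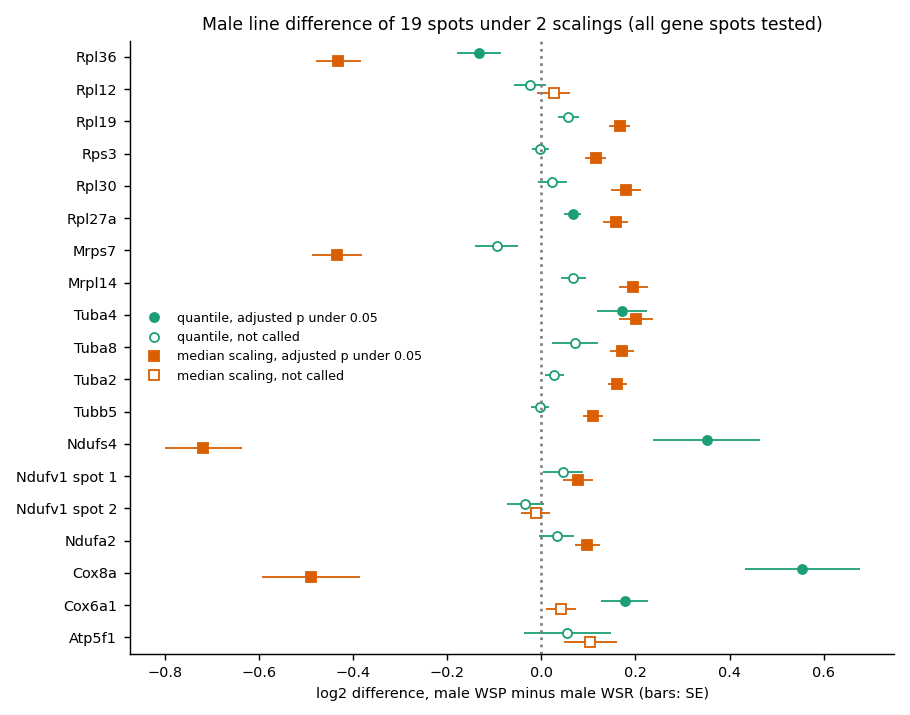
Log2 difference, male WSP minus male WSR (x axis; bars are SE), of each of 19 of the 20 spots after quantile normalization (circles) and after median scaling (squares), from fits to all 4696 gene spots; filled marks have a limma adjusted p under 0.05. Cox8a and Ndufs4 lie on opposite sides of 0 under the 2 scalings, and Rpl36 and Mrps7 lie left of 0 under both.

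Tuba4 and Cox6a1, called only when no filter was applied, had values close to background. Tuba4 was 1.22, 1.01, 1.01 and 1.16 times background in male WSP EtOH arrays and 1.16, 1.04, 1.12 and 1.03 in male WSP Air arrays, against 0.90, 1.15, 0.91 and 0.90 in male WSR EtOH arrays and 1.02, 0.97, 0.84 and 1.08 in male WSR Air arrays. The lines overlapped on this scale. Cox6a1 was 0.99 to 1.36 times background in male WSP, against 1.22 to 1.84 in male WSR, so that, as with Cox8a, its ratio to background was lower on most male WSP arrays while its rank was higher.

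Over both sexes 2 of the 4 kept spots were called between WSP and WSR (54.4% of kept spots, 22.4% higher and 32.0% lower), with Cox8a higher by 0.22 ± 0.09 (limma adjusted p = 0.0324, but 0.0550 with breeding line as a random block and 0.0574 without the filter, so the call was lost in both) and Mrps7 lower by -0.11 ± 0.03 (adjusted p = 0.00453) after quantile normalization. Cox8a was lower, by -0.34, with median scaling, where the median of kept spots was -0.42, and its call was also lost without replicate 1 (0.16), without replicate 4 (0.18) and without any 1 of 6 arrays (0.16 to 0.21, adjusted p 0.0505 to 0.0626): Female WSP EtOH 1, Female WSP Air 4, Female WSR EtOH 3, Female WSR Air 4, Male WSP EtOH 1 and Male WSP Air 3. Mrps7 passed the brightness filter through the male WSR arrays alone. It was -0.14 with cyclic loess, -0.28 with median scaling and -0.59 score units on the authors' table. Each was called, as were 57.0%, 83.9% and 61.2% of the spots tested. Under median scaling Mrps7 was less low than the median of kept spots. Without the filter it was -0.11 with a limma adjusted p of 0.0115 (26.2% of gene spots were called). Over WSP arrays it averaged 5.88, against 5.99 over WSR arrays, and 4 of 16 WSP arrays lay above the WSR mean.

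The line difference itself differed between males and females for 3 of the 4 kept spots (53.1% of kept spots). The male minus female difference of line differences was 0.67 ± 0.17 for Cox8a (limma adjusted p = 0.00181), 0.44 ± 0.16 for Ndufs4 (adjusted p = 0.0246) and -0.15 ± 0.06 for Rpl36 (adjusted p = 0.0409); for Mrps7 it was 0.03 ± 0.06. Rpl36 passed the brightness filter through the male WSR arrays alone, and its call was lost without the filter (adjusted p = 0.0928), with no intensity trend (0.0519), with array weights (0.0628) and without replicate 1, 2 or 4 (0.0571, 0.190 and 0.123). That of Ndufs4 was lost without replicate 3 (0.208) or 4 (0.158), and that of Cox8a on the authors' table (0.732). In females the WSP breeding lines lay on either side of WSR for Ndufs4. It averaged 6.78 ± 0.14 and 6.27 ± 0.28 in the first and the second female WSP breeding line. In those of female WSR it averaged 6.60 ± 0.06 and 6.62 ± 0.36 (SD, n = 4). With median scaling the male minus female difference of line differences was -0.30 for Cox8a, -0.44 for Ndufs4 and -0.31 for Mrps7. The median over all kept spots was -0.62, and Rpl36 kept its negative sign. Under that scaling 3 of the 4 were called, all but Cox8a (limma adjusted p = 0.0672), as were 77.4% of kept spots. The differences with females use the male arrays whose brightness stood apart by line, and the part of that brightness in them was not tested.

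Among neighbouring functions the male line difference after quantile normalization gave 3 higher and 0 lower of 6 kept spots of other translation factors, 6 higher and 1 lower of 11 of other energy metabolism, 1 higher and 1 lower of 5 of other cytoskeleton, and 2 higher and 1 lower of 6 EST spots with the same title words. Of 8 kept marker spots 3 were higher (hemoglobin alpha at 0.40, myelin proteolipid protein at 0.34 and endoglin at 0.31) and 3 lower (transthyretin at -0.29, the hemoglobin beta complex at -0.31 and a spot titled proteolipid protein 2 at -0.26). The last was listed by its title words and was not checked as a marker. Beside these counts, markers included, 58.3% of all kept spots were called in the same comparison, 24.4% higher and 34.0% lower. The part of the marker cell types in the differences of the 20 spots was not tested, and other scalings were not computed for these lists.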

How the data were processed

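Per the labels, cDNA made from oligo-dT primers carried 33P. Each deposited array file held the intensity of every spot together with a background intensity, the same for all spots of an array and not yet subtracted. Platform, scanner and software: not given in the sources used here. A further table, deposited by the authors, holds scores, which, checked on every array, were 8 + 2z, with z the spot's log2 intensity standardised over the array's spots (largest deviation 1.06e-06), with column medians of 7.29 to 8.55. With few exceptions only gene spots above background had a score, 1771 to 4166 per array. Score units also depend on each array's spread. The SD of log2 intensity over gene spots was 0.993 to 1.11 on male WSP arrays and 1.97 to 2.21 on male WSR arrays. The 5355 spots per array held 4696 gene spots, 192 of genomic DNA and 467 of unknown content. The rows of 1 file were sorted by signal and were joined by spot number.

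From the deposited intensities, normexp correction (offset 50), log2 and quantile normalization over gene spots were computed, the 2084 spots that reached 2 times background on 4 arrays or more were kept, and limma 3.58.1 in R 4.3.3 fitted 1 mean per group (24 residual degrees of freedom, intensity trend, 10 contrasts, Benjamini-Hochberg adjustment). The offset compresses differences of dim spots. The fit was tested on simulated data. Named with values were the kept spots, called spots, and the 3 brightest and 3 dimmest; exceptions are marked. 1 spot counted among the members is not reported here by name. Other settings were median scaling, cyclic loess, other background corrections and filters, the authors' table, array weights, blocks and left-out arrays. Members, lists and settings were chosen with earlier results of these data known. Symbols were assigned by hand from titles, and all 19 were found in the RefSeq gene table. The number of arrays limits the precision. Python 3.11.15, pandas 2.3.3 and matplotlib 3.10.9 were used.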

Additional observations from a re-analysis of the deposited data

Results flagged for a closer look

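Among 40 groups of 4 arrays looked at, 2 held an array far from the other 3, and chance marks about 1 in 20 such groups. Cox8a was lowest on 1 male WSR Air array, at a normalized log2 intensity of 5.985, against 6.11 to 6.12 on the other 3. Rpl36 was lowest on 1 female WSP EtOH array, at 5.749, against 5.95 to 5.97 on the other 3.

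The line difference, WSP minus WSR, differed between the sexes by the limma test of the difference itself for 3 spots. The male minus female value was 0.668 for Cox8a, 0.436 for Ndufs4 and -0.153 for Rpl36. The values for Cox8a and Ndufs4 changed sign with median scaling. That for Rpl36 lost its call without the brightness filter (adjusted p = 0.0928), which it passed through the male WSR arrays alone, with no intensity trend (0.0519), with array weights (0.0628), without replicate 1, 2 or 4 (0.0571, 0.190 and 0.123) and without any 1 of 18 arrays (adjusted p 0.0517 to 0.0837), namely Female WSP EtOH 1, 2 and 4, Female WSP Air 1 and 2, Female WSR EtOH 2 and 4, Female WSR Air 1 and 2, Male WSP EtOH 2, 3 and 4, Male WSP Air 3 and 4, Male WSR EtOH 1 and 3, and Male WSR Air 3 and 4. That for Ndufs4 lost it without replicate 3 (adjusted p = 0.208), without replicate 4 (0.158) and without Female WSP Air 3 (0.37, adjusted p = 0.0502).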

How the results depend on the processing

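The number of spots called, with the share of all spots tested in brackets, was 3 of 4 (58.3%) between male WSP and male WSR, 7 of 20 with no filter (30.1%), 5 of 6 on the authors' table (58.3%) and 16 of 20 with median scaling and no filter (76.1%); leaving out replicates or single arrays gave 2 to 4 (51.0% to 59.3%). Over both sexes it was 2 of 4 (54.4%), against 4 with median scaling (83.9%), 4 with cyclic loess (57.0%), 1 of 20 with no filter (26.2%), 1 of 2 with a filter of at least 16 arrays (51.6%), 1 with breeding line as a random block (50.5%) and 16 of 20 with median scaling and no filter (71.5%); leaving out gave 1 to 3 (47.1% to 55.4%). In females it was 0 of 4 (12.1%), against 1 with a threshold of 0.1 (16.5%), 1 with median scaling (36.4%), 1 of 5 on the authors' table (15.6%) and 3 of 20 with median scaling and no filter (17.9%); leaving out gave 0 to 1 (6.19% to 14.5%), with 1 without Female WSP EtOH 1, Female WSR Air 2 or Male WSP Air 1. For the difference between the sexes it was 3 of 4 (53.1%), against 12 of 20 with median scaling and no filter (61.6%); leaving out gave 1 to 3 (44.1% to 54.9%), with 1 without replicate 4. Of the ethanol comparisons, male WSP gave 1 of 20 with no filter (0.128%), and the difference between lines 1 with median scaling (27.4%) and 1 of 20 with median scaling and no filter (7.90%); leaving out gave 0 in all 6. The members' mean percentile was 41.2 when ranked among titled spots and 38.1 among spots scored in the authors' table. The other settings left these counts within 1.5 times. Mrps7 and Rpl36 passed the brightness filter through the male WSR arrays alone, so their calls among the kept spots are no support for a line difference.

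Single spots changed sign as follows. With median scaling, the male line difference was -0.72 for Ndufs4 and -0.49 for Cox8a, that over both sexes -0.50 and -0.34, and that between the sexes -0.44, -0.30 and, for Mrps7, -0.31; the female one was -0.031 for Rpl36. Ethanol differences under median scaling were -0.078 (Ndufs4, female WSP), -0.022 (Ndufs4, male WSP), 0.036 (Ndufs4, male WSR), -0.21 (Cox8a, female WSP), -0.0051 (Mrps7, female WSP) and 0.040 (Mrps7, all groups). On the authors' table, in score units, the male line difference was -0.65 for Ndufs4 and -0.17 for Cox8a, that over both sexes -0.46 and -0.25, that between the sexes -0.39 for Ndufs4 and -0.31 for Mrps7, and the female one -0.045 for Rpl36; ethanol differences were -0.024 (Ndufs4, male WSP), -0.0076 (Cox8a, female WSP) and 0.066 (Mrps7, all groups). With cyclic loess they were -0.0071 (Ndufs4, male WSP), 0.0068 (Ndufs4, between lines), -0.13 (Cox8a, female WSP), -0.025 (Cox8a, all groups), 0.033 (Mrps7, all groups) and -0.14 (Mrps7, line difference between the sexes). The ethanol difference between lines was 0.018 for Ndufs4 with no background correction and 0.0078 with an offset of 16, and 0.0091 for Cox8a with array weights. The cause of these changes was not tested.

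Leaving out replicates turned the sign of ethanol differences of Ndufs4 in female WSP (-0.082 to 0.22), in male WSP (-0.061 to 0.19) and between lines (-0.066 to 0.048), of Cox8a in female WSP (-0.077 to 0.34), female WSR (-0.073 to 0.23), male WSP (-0.13 to 0.074), all groups (-0.028 to 0.075) and between lines (-0.12 to 0.14), of Mrps7 in female WSP (-0.029 to 0.082) and all groups (-0.042 to 0.026), and of Rpl36 in female WSP (-0.0014 to 0.084). It turned the female line difference of Ndufs4 (-0.20 to 0.028), Cox8a (-0.23 to 0.011) and Rpl36 (-0.048 to 0.077) and the difference between the sexes of Mrps7 (-0.045 to 0.070). None of these was a call at the main setting.

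With a fixed replicate block, on the number 1 to 4 or on breeding line, the counts of calls did not change (3 in males, 2 over both sexes, 3 between the sexes and 0 elsewhere). With the block on the number, 58.2%, 55% and 53.9% of kept spots were called in those first 3 comparisons, and 12.2% in females. With the block on breeding line the shares were 58.6%, 55% and 53.6%, and 12.6% in females. In the ethanol comparisons they were at most 0.336%. With breeding line as a random block the count over both sexes was 1 in place of 2 (50.5% of kept spots), as Cox8a lost its call (limma adjusted p = 0.0550). The other counts did not change, beside 56.8% of kept spots in males, 53.4% between the sexes and 11% in females. By the labels, same-numbered ethanol and air arrays share a breeding line, and nothing pairs their pools within it. Correlations of their deviations from the group means were -0.10 to 0.41, over 0.1 in 5 of 16 pairs, and 6 of 16 ethanol arrays correlated best with the air array of their own number.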
